A study of Mus musculus with 3 samples.

Results

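The S100 and annexin members described here were the 10 genes S100a6, S100a10, S100a11, S100a14, S100a16, Anxa1, Anxa2, Anxa3, Anxa4 and Anxa5, taken by gene symbol out of 31053 genes. They were followed across marker-defined classes of single cells from 3 mouse pancreatic tumours with 1 library per tumour. The donor cells carried the Msi2-Myc and R26-LSL-tdTomato alleles. The series title writes Musashi2-CreER-MycT58A, a tamoxifen-inducible Cre named for Musashi2 with the T58A form of MYC. Cells that had turned on tdTomato, and so MYC, were sorted 5 weeks after tamoxifen and placed into the pancreas of NSG mice, and EpCAM+ cells of the end-stage tumours were sequenced. NSG hosts lack mature T, B and NK cells and keep defective myeloid cells. All 3 tumours share this genotype, treatment and host, so the study holds no untreated group and the tumours were not tested against one another. The labels do not say which tumour histology each library represents. The study asked whether uncommitted precancerous cells give rise to several subtypes of pancreatic cancer.

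S100 proteins are small calcium sensors with EF hand motifs that mostly work as dimers, and annexins are cytosolic proteins that bind acidic membrane lipids when calcium rises. The families meet in complexes: S100a10 pairs with Anxa2 and S100a11 with Anxa1, and such complexes tether membranes to cortical actin, take part in resealing of torn membranes and, for S100a10 with Anxa2, hold plasminogen at the cell surface. In the human pancreas, S100A6, S100A11, ANXA1 and ANXA2 are known as genes of duct-type carcinoma, whereas acinar cells are specialised for digestive enzymes.

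Cells with at least 1000 unique molecular identifiers (UMIs, each standing for 1 captured RNA molecule) and 500 genes and with at most 20% mitochondrial UMIs were kept where 60% or more of the barcode's UMIs over the 3 libraries lay in that library. This left 1431, 253 and 2804 cells in tumours 1, 2 and 3, from libraries of 11502184, 9737397 and 16521484 UMIs. All 1553, 511 and 2832 barcodes that passed the other filters also had at least 10 UMIs in another library, and the 60% rule removed 7.86%, 50.5% and 0.989% of them. A cell was placed in a gate when it had at least 3 UMIs of the gate genes and a share of them at or above the mean share. The gates were Msln, Tm4sf1 and F3 (the Msln gate below), ductal Tff1 and Lgals4, squamous Krt5 and Krt14, and acinar Ctrb1 and Clps. The Msln gate held 39, 7 and 69 cells of tumours 1, 2 and 3, the ductal gate 394, 98 and 177, the squamous gate 0, 3 and 61, and the acinar gate 308, 36 and 1737. Another 33, 5 and 139 cells passed several gates, and 657, 104 and 621 passed none. Sums of these classes with fewer than 20 cells were not used, so comparisons with the Msln gate rest on tumours 1 and 3. The squamous gate is known from tumour 3 alone and was not tested. Sets of cells that met 2 gates are described below without a test, from as few as 14 cells. The Msln gate was also narrow: 33 of the 180 cells that met it had exactly 3 UMIs of its genes, and 122 cells over the mean share had 2.

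The gates were set beside marker genes that did not define them. The marker lists were chosen with earlier results of these data known, so they are not an independent check of the gates. The 14 other acinar markers summed to 261 to 1341 CPM (UMIs scaled to a total of 1000000 per sum) in the Msln gate, 545 to 952 CPM in the ductal gate and 8379 to 11686 CPM in the acinar gate. The 10 other ductal markers summed to 7343 to 7776 CPM in the Msln gate, 7800 to 11784 CPM in the ductal gate and 2335 to 3316 CPM in the acinar gate. The 9 other squamous markers reached 5624 CPM in the squamous gate, against 362 to 497 CPM in the Msln gate and 301 to 378 CPM in the ductal gate. Ly6a, Plat and Ankrd1, listed as further markers of the Msln gate, summed to 1881 to 1979 CPM in it, 243 to 407 CPM in the ductal gate and 89.4 to 127 CPM in the acinar gate, and to 1375 to 1842 CPM in barcodes of 10 to 100 UMIs. Msln is also a mesothelial gene, but all 7 other mesothelial markers and all 8 fibroblast markers had no UMI in the Msln gate of either tumour. The 10 myeloid markers summed to 21.7 and 41.3 CPM there, with 6 to 9 of the 10 at 0. Their sum was at most 17.0 CPM in the ductal gate and 9.62 CPM in the acinar gate. It was 32.7 CPM in the squamous gate of tumour 3 and 7.77 to 29.0 CPM in cells of several gates. In barcodes of 10 to 100 UMIs it was 20.8 to 37.8 CPM. In tumour 3 most barcodes of the acinar gate, 1045 of 1737, had under 1% mitochondrial UMIs, and the median share of transcripts from the ribosomal RNA locus was 25.7% there, against 1.62% in the acinar gate of tumour 1.

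The 10 members together made up 2.03% and 1.37% of all UMIs in the Msln gate of tumours 1 and 3, 1.37%, 1.22% and 1.42% in the ductal gate of tumours 1, 2 and 3, 1.06% in the squamous gate of tumour 3, and 0.197%, 0.202% and 0.299% in the acinar gate. Every Msln, ductal and squamous sum thus lay above every acinar sum. When each cell was thinned to 1000 UMIs, the median cell of the Msln gate had 5 of the 10 members in both tumours, the median ductal cell had 3, 3 and 4 in tumours 1, 2 and 3, and the median acinar cell had 1, 1 and 2. At least 5 members were found in 79.5% and 50.7% of cells of the Msln gate in tumours 1 and 3, in 22.8%, 19.4% and 26.0% of ductal cells, and in 0.974%, 0% and 2.94% of acinar cells. The 0% is 0 of 36 cells, where 3 cells would be 8.33%. Median depths before thinning were 2122 and 4206 UMIs in the Msln gate, 1294 to 1773 UMIs in the ductal gate and 1285 to 1635 UMIs in the acinar gate.

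**Figure D1:**
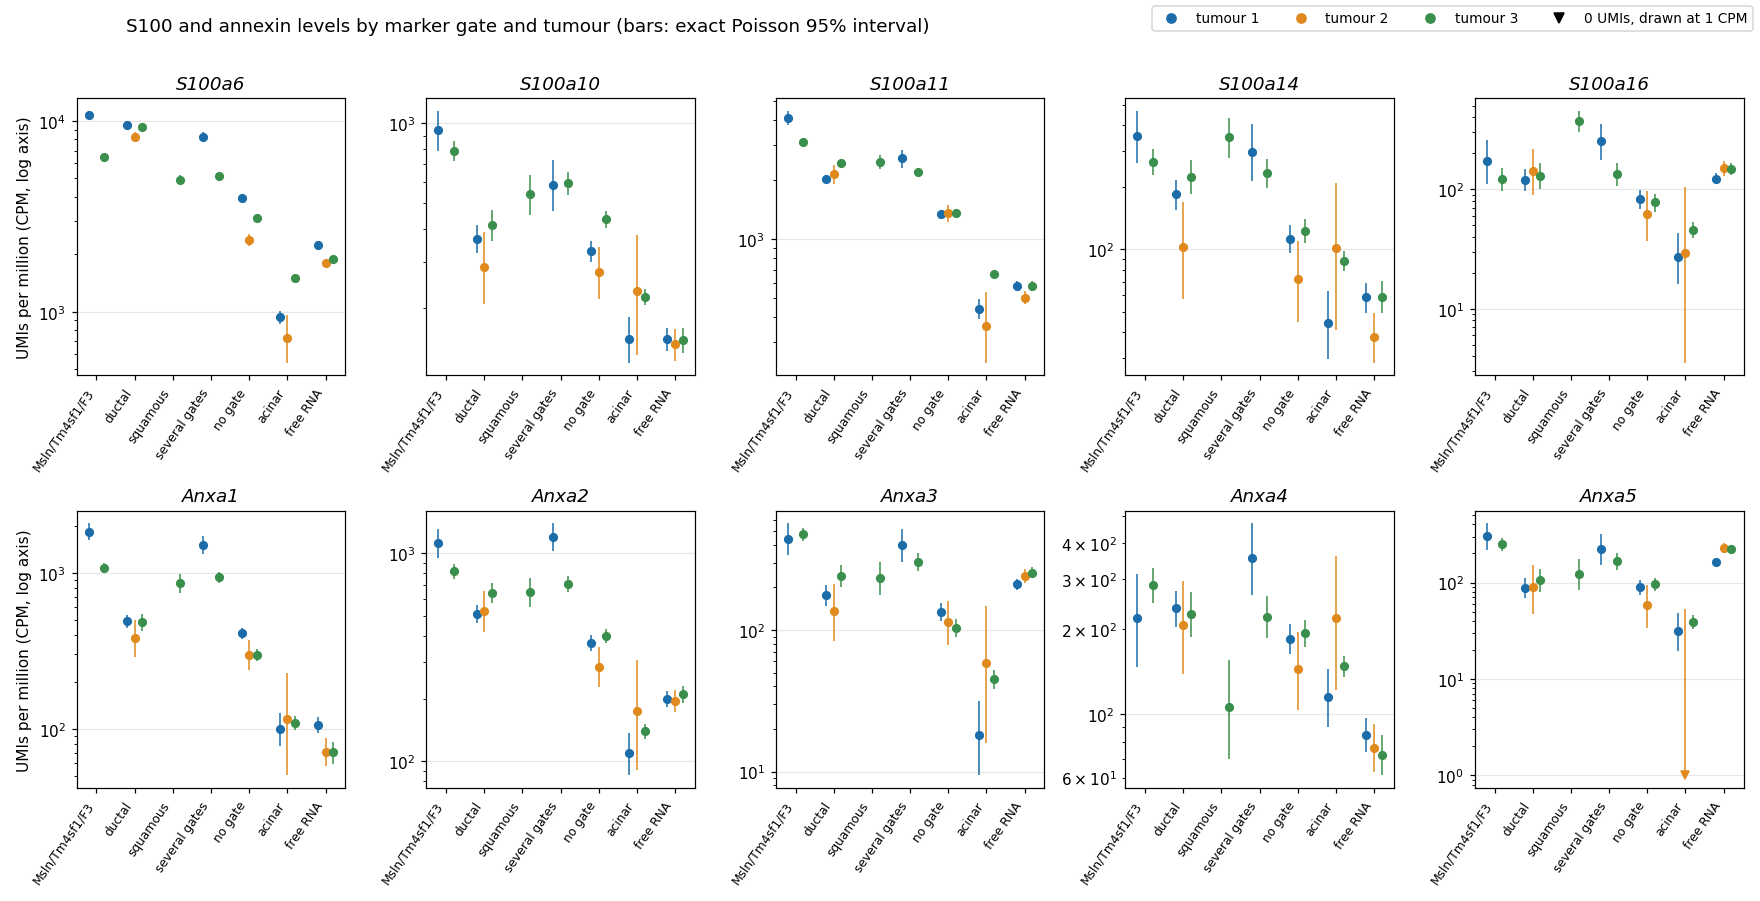
Level of each of the 10 members (CPM of summed UMIs, log axis) by gate and tumour, with exact Poisson 95% intervals as bars and triangles at the base for sums without a UMI. The Msln, ductal and squamous gates lie above the acinar gate for S100a6, S100a11, Anxa1 and Anxa2, while the sums for Anxa4 overlap.

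Against the acinar gate, all 10 members were called higher in the Msln gate and all 10 were called higher in the ductal gate. The calls come from edgeR's quasi-likelihood test on the summed UMIs with the tumour as a block, at a Benjamini-Hochberg adjusted p under 0.05 over all genes tested. Of the 8934 genes tested outside the gate genes, 11.5% were called higher and 9.03% lower in the Msln gate than in the acinar gate, and 12.6% higher and 9.75% lower in the ductal gate than in the acinar gate. The median log2 difference of the members was 2.65 for the Msln gate over the acinar gate, beside -0.02 for all genes, and 1.82 for the ductal gate over the acinar gate, beside 0.01 for all genes. Between the Msln gate and the ductal gate, 4 members were called higher in the Msln gate, 0 were called lower (0 also at an unadjusted p under 0.05 in edgeR and with DESeq2) and 6 were not called, where 2.42% of all genes were called higher and 2.36% lower. The member median there was 0.56, beside -0.02 for all genes. These comparisons share gates, so the same acinar and ductal sums enter more than 1 of them. The members were chosen with earlier results of these data known, so counts above the shares over all genes are not independent support.

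S100a6, calcyclin, is a calcium-binding dimer found in duct and stromal cells and known to bind Anxa2 among other annexins. It stood at 10786 and 6489 CPM in the Msln gate of tumours 1 and 3, and at 9519, 8231 and 9316 CPM in the ductal gate of tumours 1, 2 and 3, against 936, 727 and 1494 CPM in the acinar gate. Both upper gates were clear of the acinar gate, while the Msln and ductal gates overlapped. The ductal gate exceeded the acinar gate by a log2 difference of 3.11 ± 0.22 (SE; adjusted p = 1.19e-17, higher in 3 of 3 tumours), and the Msln gate by 2.71 ± 0.23 (adjusted p = 3.54e-14, 2 of 2 tumours). Between the Msln and ductal gates the difference was -0.40 ± 0.24 (adjusted p = 0.405), with tumour 1 at 0.18 and tumour 3 at -0.52. After thinning, S100a6 had a UMI in 99.0% to 99.4% of ductal cells and in 100% and 94.2% of Msln cells of tumours 1 and 3. The share was 98.4% of squamous cells in tumour 3. It was 88.0%, 78.8% and 81.6% of cells of no gate, and 37.7%, 36.1% and 69.9% of acinar cells, in tumours 1, 2 and 3.

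S100a11 is a partner of Anxa1 that is known to move to membranes when calcium rises. Its level was 4139 and 3115 CPM in the Msln gate of tumours 1 and 3, 2018, 2130 and 2427 CPM in the ductal gate, and 441, 364 and 661 CPM in the acinar gate. The order Msln, ductal, acinar held in both tumours with all 3 gates. The Msln gate was higher than the acinar gate by 2.65 ± 0.22 (adjusted p = 3.84e-15) and the ductal gate higher than the acinar gate by 2.11 ± 0.20 (adjusted p = 3.14e-13). Its difference between the Msln and ductal gates, 0.54 ± 0.21, was not called (adjusted p = 0.1503). That last value was 0.91 (adjusted p = 0.00172) without tumour 3 and 0.13 (adjusted p = 0.936) without tumour 1, each of which leaves the Msln gate with 1 sum.

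S100a10, the light chain of the Anxa2 tetramer, cannot bind calcium itself and docks Ahnak and plasminogen. It stood at 942 and 788 CPM in the Msln gate, at 366, 288 and 412 CPM in the ductal gate, and at 153, 233 and 222 CPM in the acinar gate. The Msln sums lay clear of all others, and the lowest ductal sum, that of tumour 2, was little above the acinar sums. Over the ductal gate the Msln gate was higher by 1.02 ± 0.20 (adjusted p = 0.000257, 2 of 2 tumours), and over the acinar gate by 1.93 ± 0.20 (adjusted p = 1.14e-11). The ductal gate exceeded the acinar gate by 0.92 ± 0.19 (adjusted p = 0.000105), with tumour values of 1.26, 0.31 and 0.90.

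S100a14 and S100a16 are epithelial S100 genes that lie side by side in the S100 cluster and, in human cells, are known as binding partners. S100a14 was at 355 and 266 CPM in the Msln gate, 184, 103 and 225 CPM in the ductal gate and 43.9, 102 and 88.0 CPM in the acinar gate. In tumour 2 the ductal and acinar gates were level (log2 difference 0.01), and in tumours 1 and 3 the ductal gate was ahead by 2.07 and 1.36. S100a16 was at 174 and 122 CPM in the Msln gate, 120, 144 and 131 CPM in the ductal gate and 27.3, 29.1 and 45.4 CPM in the acinar gate, with no overlap between the acinar gate and the others. For S100a14 the differences were 1.76 ± 0.24 for the Msln gate over the acinar gate (adjusted p = 4.31e-08) and 1.32 ± 0.22 for the ductal gate over the acinar gate (adjusted p = 3.90e-06). For S100a16 they were 1.54 ± 0.27 (adjusted p = 1.35e-05) and 1.58 ± 0.24 (adjusted p = 5.54e-07). Neither gene was called between the Msln and ductal gates, where S100a14 differed by 0.44 ± 0.24 (adjusted p = 0.347) and S100a16 by -0.04 ± 0.27 (adjusted p = 0.965). Without tumour 3 the Msln gate exceeded the acinar gate by 2.79 for S100a14 and 2.69 for S100a16. With only cells of at most 2% ribosomal RNA locus UMIs, a limit added after the acinar gate of tumour 3 was seen, S100a14 exceeded the acinar gate by 2.26 in the ductal gate.

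Anxa1, annexin A1, is a glucocorticoid-induced protein that acts in membrane repair and, once released, on formyl peptide receptors. It stood at 1834 and 1070 CPM in the Msln gate of tumours 1 and 3, at 488, 383 and 482 CPM in the ductal gate, and at 99.95, 116 and 109 CPM in the acinar gate. The 3 gates did not overlap, and the spread over tumours was widest in the Msln gate. The Msln gate was higher than the ductal gate by 1.42 ± 0.20 (adjusted p = 2.69e-07, 2 of 2 tumours) and than the acinar gate by 3.48 ± 0.21 (adjusted p = 5.91e-20). The ductal gate exceeded the acinar gate by 2.05 ± 0.20 (adjusted p = 1.05e-12, 3 of 3 tumours). After thinning, Anxa1 had a UMI in 79.5% and 50.7% of Msln cells, in 27.7% to 31.6% of ductal cells and in 5.56% to 11.97% of acinar cells.

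Anxa2, the heavy chain of the tetramer with S100a10, binds membranes and actin. Its level was 1116 and 817 CPM in the Msln gate, 509, 527 and 643 CPM in the ductal gate and 109, 175 and 139 CPM in the acinar gate. The gates did not overlap. The Msln gate exceeded the acinar gate by 2.66 ± 0.21 (adjusted p = 2.75e-15) and the ductal gate exceeded it by 2.08 ± 0.20 (adjusted p = 5.93e-13). The Msln gate differed from the ductal gate by 0.57 ± 0.20, which was not called (adjusted p = 0.0913), although its partner S100a10 was. Whether the 2 genes differ from each other in this contrast was not tested. The Anxa2 difference was 1.03 (adjusted p = 0.00173) without tumour 3 and 0.21 (adjusted p = 0.830) without tumour 1.

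Anxa3 and Anxa5 were the other annexins called between the Msln and ductal gates. Anxa3 is a membrane-binding annexin known from neutrophil granules and from carcinoma cells. It was at 442 and 475 CPM in the Msln gate, 177, 137 and 240 CPM in the ductal gate and 18.2, 58.2 and 45.2 CPM in the acinar gate. The Msln gate was higher than the ductal gate by 1.08 ± 0.22 (adjusted p = 0.000797) and than the acinar gate by 3.37 ± 0.24 (adjusted p = 5.78e-17), and the ductal gate higher than the acinar gate by 2.29 ± 0.24 (adjusted p = 9.73e-12). That last difference was 3.47 with cells of at most 2% ribosomal RNA locus UMIs. Anxa5, which binds phosphatidylserine and forms lattices at membrane tears, was at 304 and 248 CPM in the Msln gate and 88.4, 89.0 and 106 CPM in the ductal gate. In the acinar gate it had 31.8 and 38.8 CPM in tumours 1 and 3 and no UMI in tumour 2, where 3 UMIs would be 43.6 CPM. The Msln gate was higher than the ductal gate by 1.28 ± 0.24 (adjusted p = 0.000226) and than the acinar gate by 2.66 ± 0.25 (adjusted p = 2.71e-13), and the ductal gate higher than the acinar gate by 1.39 ± 0.25 (adjusted p = 1.34e-05).

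Anxa4, an annexin of secretory and duct epithelia that binds and stiffens membranes, had the smallest differences from the acinar gate. It was at 217 and 285 CPM in the Msln gate, 236, 205 and 225 CPM in the ductal gate and 115, 218 and 148 CPM in the acinar gate. In tumour 2 the acinar gate lay above the ductal gate. The Msln gate exceeded the acinar gate by 0.70 ± 0.22 (adjusted p = 0.0147) and the ductal gate exceeded it by 0.65 ± 0.19 (adjusted p = 0.00982, higher in 2 of 3 tumours). Both calls depend on the processing: the first was lost without tumour 1 (adjusted p = 0.113), without tumour 3 (adjusted p = 0.167) and with DESeq2 (adjusted p = 0.0789), and the second without tumour 1 (0.40, adjusted p = 0.335) and with DESeq2 (adjusted p = 0.0718). Between the Msln and ductal gates it differed by 0.05 ± 0.22 (adjusted p = 0.950).

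**Figure D2:**
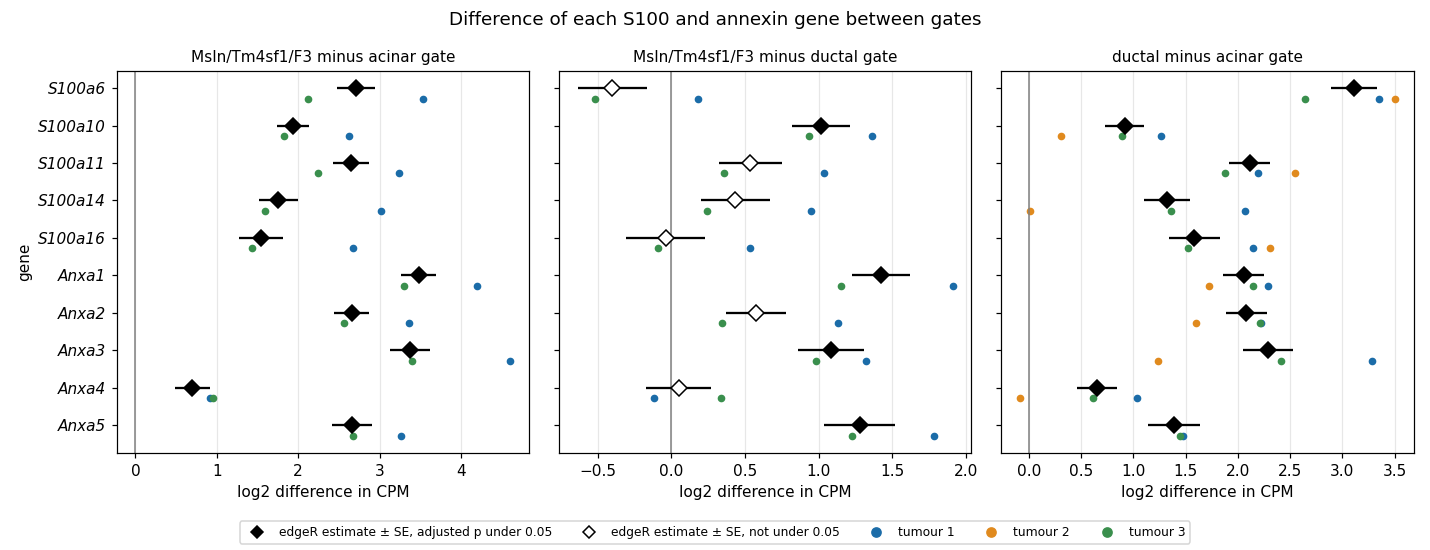
Log2 difference of each member for Msln over ductal, Msln over acinar and ductal over acinar gates (edgeR estimate with SE as bars, filled where called, small dots for single tumours). S100a10, Anxa1, Anxa3 and Anxa5 are filled in the comparison of the Msln and ductal gates, and all 10 members in the comparisons with the acinar gate.

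In the squamous gate of tumour 3, the member that stood apart was S100a16, at 373 CPM (95% Poisson interval 299.9 to 457 CPM) against 131 CPM in the ductal gate and 122 CPM in the Msln gate of that tumour. After thinning it had a UMI in 41.0% of squamous cells, against 14.7% of ductal and 11.6% of Msln cells of tumour 3. S100a14 was at 348 CPM there, Anxa1 at 856 CPM and S100a10 at 540 CPM. Anxa4 was lowest in the squamous gate, at 106 CPM (interval 69.5 to 156 CPM) against 225 CPM in the ductal gate and 148 CPM in the acinar gate of tumour 3, and S100a6 was at 4924 CPM against 9316 CPM in the ductal gate. With 1 tumour these differences have no replicate check, and the intervals, here and below, cover counting error only. Cells that met both the Msln and squamous gates, 18 in tumour 3, summed to 10448 CPM of the 5 S100 members and 3859 CPM of the 5 annexins.

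**Figure D3:**
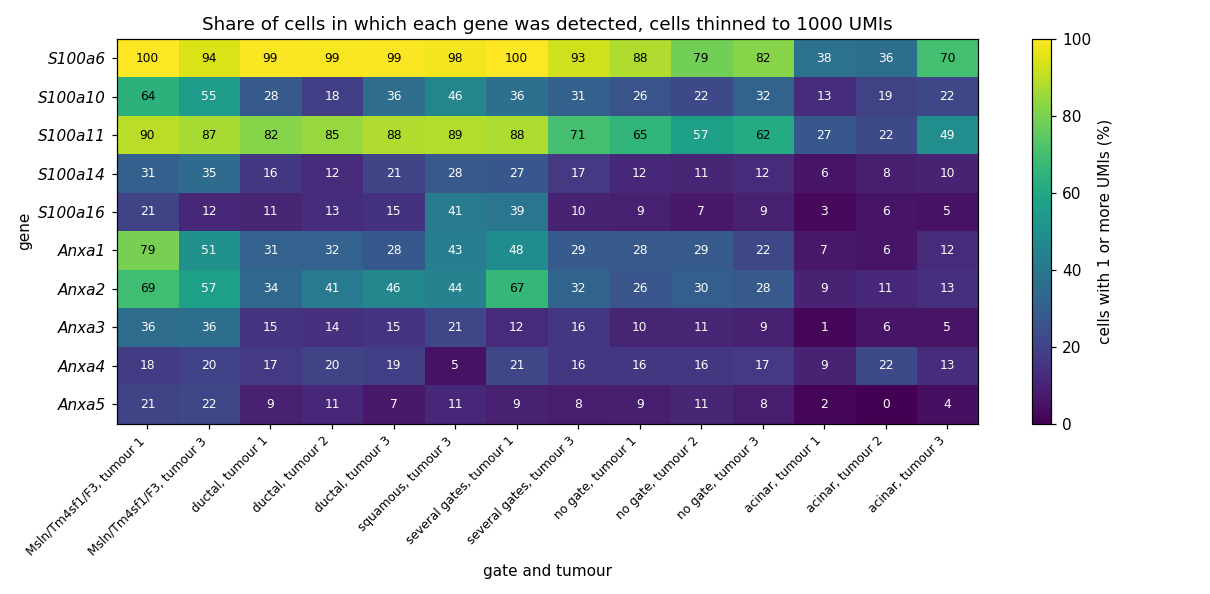
Percent of cells with at least 1 UMI of each member after thinning to 1000 UMIs, by gate and tumour. S100a6 is found in 99.0% to 99.4% of ductal cells, in 100% and 94.2% of Msln cells and in 98.4% of squamous cells. Anxa1 is found in 79.5% and 50.7% of Msln cells, and S100a16 in 41.0% of squamous cells of tumour 3.

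The cells outside the single gates were summed too. Cells of no gate had 3925, 2384 and 3100 CPM of S100a6 and 411, 299 and 297 CPM of Anxa1 in tumours 1, 2 and 3. Cells of both the Msln and ductal gates, 17 and 16 in tumours 1 and 3, had 13130 and 12372 CPM of the 5 S100 members and 3971 and 2530 CPM of the 5 annexins. Cells of both the acinar and ductal gates, 14 and 75 in tumours 1 and 3, had 5234 and 6067 CPM of the S100 members and 1039 and 916 CPM of the annexins. These counts leave out cells that also met a further gate. Whether such cells are doublets was not tested. They stand on neither side of a comparison, but the sums of cells of several gates and of none share the fit.

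The acinar values were set beside those of barcodes with few UMIs, which hold free RNA. Several acinar sums lay below those barcodes, so they are not a floor. How much of their RNA entered the kept cells was not tested. In barcodes of 10 to 100 UMIs, S100a6 stood at 1795 to 2225 CPM and Anxa2 at 196 to 210 CPM, above all 3 acinar sums, and the same held for S100a16, Anxa3 and Anxa5. S100a11 stood at 503 to 579 CPM, between the acinar sums. No expression in acinar cells was therefore read from these 6 genes. For 3 of them the same limit touches the ductal gate. Anxa5 stood at 165 to 228 CPM in those barcodes, above all 3 ductal sums, Anxa3 at 210 to 255 CPM, above 2 of the 3, and S100a16 at 123 to 149.9 CPM, overlapping its ductal sums. No expression in ductal cells was read from the levels of these 3 genes either, and the S100a16 sums of the Msln gate overlapped that range too. S100a10, S100a14, Anxa1 and Anxa4 had at most 153, 59.2, 106 and 85.0 CPM in those barcodes, and only for Anxa4 did all 3 acinar sums exceed that value. The 5 S100 members summed to 3705 CPM in acinar barcodes of tumour 3 with under 1% mitochondrial UMIs and to 1615 CPM in those with 1% or more, and to 3235 and 1272 CPM in tumour 1. The 5 annexins had 561 and 419 CPM in the same sets of tumour 3. With barcodes under 1% mitochondrial UMIs left out, a limit also added after the data were seen, 10 members were called higher in the ductal than in the acinar gate and 10 in the Msln than in the acinar gate.

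Across the 14 sums of at least 20 cells, Anxa4 was the member least like the mean of the other 9 in profile. The Pearson correlation of a member's log2(CPM + 1) with the mean of the other 9 was 0.97 for S100a11, 0.97 for Anxa2 and 0.96 for Anxa1. It was 0.76 for Anxa5 and 0.49 for Anxa4. Anxa5 had no UMI in the acinar sum of tumour 2 (36 cells), which entered at 0 CPM, and the weight of that sum was not tested. These sums share tumours and gates, so the values are descriptions. Of the 2778 genes at a mean of 50 CPM or more that were neither members nor gate genes, the most similar in profile to the member mean were Tmsb4x (thymosin beta 4, which binds actin monomers; r = 0.965), Lpp (a LIM protein of cell adhesions; r = 0.959), Sat1 (a polyamine acetyltransferase; r = 0.952), Sh3bgrl3 (r = 0.950) and Slc9a3r1 (the scaffold EBP50; r = 0.947). From cell to cell, with cells thinned to 1000 UMIs, S100a6 and S100a11 had a Spearman rho of 0.536, 0.464 and 0.394 over all kept cells of tumours 1, 2 and 3, and of 0.356, 0.0929 and 0.206 within the ductal gate. The partners S100a10 and Anxa2 had a rho of 0.494 over the 69 Msln cells of tumour 3. That was the highest of the 45 pairs there, whose median was 0.166. Within the ductal gate the pair had 0.118, 0.198 and -0.004. In tumour 3 it had 0.266 over squamous cells and 0.288 over cells of several gates. Cells of no gate gave 0.233, 0.194 and 0.235 in tumours 1, 2 and 3, and acinar cells 0.134 and 0.015 in tumours 1 and 3. The median over all 45 pairs was 0.140, 0.0868 and 0.102 over all kept cells, and cells of a library share its depth and free RNA.

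On mm10 all 5 S100 members lie on chromosome 3. S100a14 (chr3:90526856-90528837), S100a16 (chr3:90537254-90543151) and S100a6 (chr3:90612882-90624181) lie in 1 stretch, and S100a11 (chr3:93520488-93526287) and S100a10 (chr3:93555080-93564643) in another, all on the plus strand. Anxa5 is also on chromosome 3 (chr3:36448923-36475894, minus strand). Anxa1 lies at chr19:20373428-20390944 (minus), Anxa2 at chr9:69453620-69491795 (plus), Anxa3 at chr5:96793339-96845966 (plus) and Anxa4 at chr6:86736840-86793584 (minus). Each is annotated as a protein-coding gene, and the intervals span the whole gene with its introns and UTRs. Apart from miRNAs, another annotated gene overlaps 4 of the 10, Anxa1, Anxa2 and Anxa4 on the opposite strand and Anxa3 on the same strand, and the labels and headers do not say whether counting used strand.

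Because most members moved together, their promoters were searched for the AP-1 motif TGANTCA and the TEAD motif GGAATG on both strands. RefSeq windows (GRCm38.p6, 250 bases before to 50 bases after the start) were matched for 7 of the 10 genes. TGANTCA was in a window of S100a11, S100a16 and Anxa2, 3 of 7 genes, beside 8.97% of 27025 genes with a window. The matched letters were TGAGTCA in S100a11 and Anxa2 but TGAATCA in S100a16. GGAATG was in a window of 1 of the 7, beside 16.6%. The windows of S100a11 (chr3:93520246-93520545, plus strand) and Anxa2 (chr9:69453433-69453732, plus strand) are shown because they hold the match nearest the start, with the matches in capitals. The matches start at positions -136 and -38 in S100a11 and at -95 in Anxa2, counted from the transcript start.
S100a11: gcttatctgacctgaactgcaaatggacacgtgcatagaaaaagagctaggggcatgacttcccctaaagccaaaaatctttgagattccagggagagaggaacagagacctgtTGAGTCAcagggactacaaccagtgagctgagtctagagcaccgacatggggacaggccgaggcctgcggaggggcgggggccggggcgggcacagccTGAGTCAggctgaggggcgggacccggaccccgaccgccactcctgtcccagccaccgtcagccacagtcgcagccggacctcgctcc
Anxa2: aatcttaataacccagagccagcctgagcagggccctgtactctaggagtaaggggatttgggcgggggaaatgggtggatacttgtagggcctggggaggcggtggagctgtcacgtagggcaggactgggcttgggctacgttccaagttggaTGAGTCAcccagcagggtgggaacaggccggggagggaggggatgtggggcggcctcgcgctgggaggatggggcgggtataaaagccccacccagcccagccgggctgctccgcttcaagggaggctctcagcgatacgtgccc
A match describes the letters in the window and is not evidence that a factor binds there.

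The file lists 18 other S100 and annexin genes, of which 10 had enough UMIs to be tested. Of all genes tested, 12.6% were called higher and 9.75% lower in the ductal gate than in the acinar gate. Of these 10, 6 were called higher, 1 was called lower and 3 were not called. Anxa10, a gastric-type annexin, had the largest difference, 2.62 ± 0.23 (adjusted p = 6.04e-14), at 281 to 409 CPM in the ductal gate against 29.1 to 70.8 CPM in the acinar gate. S100a1 followed with 2.08 ± 0.28, Anxa8 with 1.89 ± 0.24, S100a13 with 1.67 ± 0.34, Anxa7 with 1.00 ± 0.23 and Anxa11 with 0.74 ± 0.25. S100g, the calcium carrier calbindin D9k, was called lower by -1.15 ± 0.24 (adjusted p = 0.000174), at 34.2 to 75.7 CPM in the ductal gate against 121 to 138 CPM in the acinar gate. The 3 that were not called in it were Anxa6, S100a3 and S100a4. In the Msln gate over the acinar gate, 5 were called higher and S100g was called lower by -1.45 ± 0.29. Not called were S100a13, Anxa6, S100a3 and S100a4, and over all genes 11.5% were called higher and 9.03% lower. Between the Msln and ductal gates, 0 of the 10 were called by edgeR and 0 by DESeq2. By edgeR 2.42% of all genes were called higher and 2.36% lower there, so 0 of 10 is close to that share. Among the 10, 1, S100a1, had an unadjusted p under 0.05 in edgeR (-0.999 ± 0.332, adjusted p = 0.0672). In tumour 3 Anxa8 was at 262 CPM in the squamous gate, against 125 CPM in the Msln gate. The 8 untested genes, S100a8 and S100a9 among them, had at most 35 UMIs each over all kept cells.

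**Figure D4:**
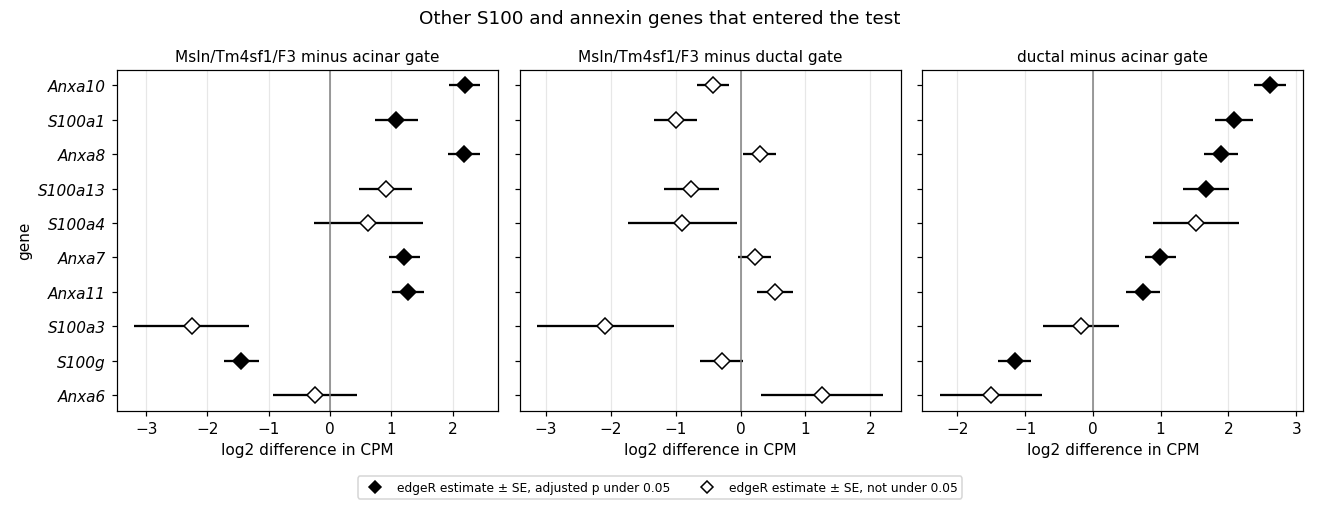
Log2 difference of the 10 other tested S100 and annexin genes in the same 3 comparisons (edgeR estimate with SE as bars, filled where called). S100g is lower in the Msln and ductal gates than in the acinar gate, Anxa10 is higher, and no gene is filled between the Msln and ductal gates.

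Genes that work with the members were taken from 5 lists, whose counts are given beside the shares over all 8934 genes tested by edgeR. The lists were chosen with earlier results of these data known, so a count above those shares is not independent support. For the Msln over the acinar gate, 11.5% of all genes were called higher and 9.03% lower. For the ductal over the acinar gate these shares were 12.6% and 9.75%, and for the Msln over the ductal gate 2.42% and 2.36%. Of 13 tested genes of annexin complexes and membrane repair, 9 were called higher and 0 lower in the Msln gate than in the acinar gate, 9 higher and 0 lower in the ductal gate than in the acinar gate, and 5 higher and 0 lower in the Msln gate than in the ductal gate. DESeq2 called 8, 7 and 2 higher in the same order and 0 lower. At an unadjusted p under 0.05 in edgeR, 0, 0 and 1 were lower. Ahnak, the giant scaffold that S100a10 and Anxa2 bring to the membrane, averaged 441 CPM in the Msln gate (n = 2 tumours), 141 CPM in the ductal gate and 30.9 CPM in the acinar gate (n = 3 each). It was higher in the Msln gate than in the ductal gate by 1.51 ± 0.28 (adjusted p = 0.000156) and than in the acinar gate by 3.21 ± 0.29 (adjusted p = 2.36e-13). Myof, a ferlin of membrane fusion, was higher in the Msln gate than in the acinar gate by 3.39 ± 0.29 and Cavin1, a caveolar coat protein, by 2.56 ± 0.36. Ahnak2 and Tgm2, a transglutaminase, were called in the Msln gate over the ductal gate at 2.82 ± 0.76 and 1.40 ± 0.39. Sri, the EF hand protein sorcin that binds Anxa7, led the ductal gate over the acinar gate at 2.12 ± 0.21.

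Among genes of the plasminogen system, Plat and Plaur were called. Plat, tissue plasminogen activator, is also 1 of the markers listed above for the Msln gate, so its level there is not a separate result. Plat averaged 353 CPM in the Msln gate, 37.4 CPM in the ductal gate and 11.5 CPM in the acinar gate. It was higher in the Msln gate than in the ductal gate by 3.07 ± 0.29 (adjusted p = 2.95e-12). Plaur, the urokinase receptor, was higher in the ductal gate than in the acinar gate by 2.50 ± 0.28 (adjusted p = 1.71e-10) and in the Msln gate by 3.18 ± 0.29. Of the 8 receptor genes 2 were tested, and the 1 called was Itgb1, an integrin beta chain, in the Msln gate over the acinar gate at 0.69 ± 0.23 (adjusted p = 0.0227). DESeq2 called 0 of the receptor genes, and edgeR found 0 and 1 of them at an unadjusted p under 0.05 for the ductal over the acinar gate and the Msln over the ductal gate.

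Of 19 other EF hand genes tested, 9 were called higher in the Msln gate and 9 in the ductal gate than in the acinar gate, and 3 were called higher in the Msln gate than in the ductal gate, while 0 were called lower in any of the 3, with edgeR or DESeq2. At an unadjusted p under 0.05 in edgeR, 1, 2 and 3 of them were lower in that order. Calml4 (3.32 ± 0.44), Pls1, an actin bundler of microvilli (2.12 ± 0.32), and Myl12b, a myosin light chain (1.38 ± 0.20), led the ductal gate over the acinar gate. Pls3 (1.31 ± 0.41), Myl12a (0.95 ± 0.22) and Actn1 (0.77 ± 0.22) were those called in the Msln gate over the ductal gate. Of 17 genes of actin and the membrane skeleton, 13 were called higher and 1 lower in the Msln gate than in the acinar gate, 6 higher and 0 lower in the Msln gate than in the ductal gate, and 9 higher and 2 lower in the ductal gate than in the acinar gate. The 0 was 1 at an unadjusted p under 0.05 in edgeR and 0 with DESeq2. Lgals3, galectin 3, averaged 926 CPM in the Msln gate, 164 CPM in the ductal gate and 77.6 CPM in the acinar gate, and was higher in the Msln gate than in the ductal gate by 2.17 ± 0.24 (adjusted p = 4.94e-10). Rdx, the membrane linker radixin, averaged 128 CPM in the Msln gate, 17.0 CPM in the ductal gate and 181 CPM in the acinar gate, and its difference in the ductal gate over the acinar gate was -3.25 ± 0.30 (adjusted p = 1.98e-13). Lgals1 was called lower in both the Msln gate (-2.16 ± 0.38) and the ductal gate (-4.37 ± 0.47) than in the acinar gate.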

How the data were processed

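UMI counts per gene and barcode were deposited as whole numbers in 3 unfiltered 10x matrices of 6794880 barcodes; per the submitters' processing notes they come from Cell Ranger 3 on mm10 and Seurat 3.1 was used, and the file headers give version 3.0.2. The kit version is not settled by the labels, and no source here names the gene annotation. Cell filters and gates are given with the results. The gates of a tumour come from 1 animal, so the tumour was a block. Raw UMIs were summed per tumour and class (sums of 20 or more cells, 14 in all) and tested with edgeR 4.0.16 (filterByExpr, TMM, quasi-likelihood, Benjamini-Hochberg at 0.05; 8943 genes, 6 residual degrees of freedom), which was checked on simulated data. Thinning to 1000 UMIs used 1 seeded draw, and no kept cell is shallower. CPM is a share of summed UMIs scaled to 1000000, with exact Poisson intervals, and shares have exact binomial ones. No doublet caller was used for the reported values, and cells of several gates form a class of their own. Alternatives were DESeq2 1.42.0, RLE factors, no filter on low counts, no replicate block, each tumour left out, every barcode kept, stricter gates and mitochondrial limits, assignment of cells of several gates, removal of high doublet scores (Scrublet in scanpy 1.11.5), other totals, fewer sums, and 2 limits added after the data were seen (at least 1% mitochondrial UMIs, and at most 2% of UMIs from the ribosomal RNA locus). The partner genes named were among the 3 called with the largest absolute difference in their list and comparison. Not all of these genes, nor all of their differences, are given. For the plasminogen list the counts and 1 gene are not reported here. The members and lists were chosen with earlier results of these data known. The labels do not say that the tumours are independent transplants. The p-values measure the spread left among the 14 sums of these 3 libraries after the gate and tumour terms, pooled over all classes. Comparisons with the Msln gate rest on 2 of the 3 tumours.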

Additional observations from a re-analysis of the deposited data

How the results depend on the processing

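The numbers of members called were within 1.5 times the reported ones under all 16 alternatives: 9 or 10 higher for the Msln over the acinar gate and for the ductal over the acinar gate, 4 to 6 for the Msln over the ductal gate, and 0 lower throughout. No called difference changed sign. Anxa4 accounted for all 11 lost calls: its adjusted p ranged from 0.000766 to 0.177 for the Msln over the acinar gate and from 0.00205 to 0.335 for the ductal over the acinar gate. Without the replicate block, where the tumour was not a term, these were 0.0830 and 0.101, and no other call changed. The 10 gained calls were S100a11 and Anxa2 in the Msln over the ductal gate, with highest values of 0.91 and 1.03 without tumour 3 and lowest values of 0.13 and 0.21 without tumour 1. Other totals, no filter on low counts and every barcode kept moved the median of all genes by more than 0.1. The cause of these shifts was not tested. Leaving out tumour 1 or 3 left the Msln gate with 1 sum, assumed to vary like the others. The depth of 1000 UMIs per thinned cell limits what the shares can show for genes of low level.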

Other observations

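Barcodes of 10 to 100 UMIs, which hold free RNA and too few molecules to be called cells, had their own pattern of S100 and annexin RNA. S100a13 averaged 269 ± 48.1 CPM there, against 26.1 ± 3.47 CPM over all kept cells (SD, n = 3 tumours each). Anxa3 averaged 236 ± 22.8 against 137 ± 9.80 CPM, Anxa5 205 ± 34.9 against 83.6 ± 12.2 CPM, S100a16 140.4 ± 15.0 against 88.5 ± 4.35 CPM and S100a1 79.6 ± 8.36 against 38.4 ± 9.33 CPM. S100a6, S100a11 and Anxa1 went the other way, at 1969 ± 226 against 4123 ± 963 CPM, 553 ± 43.1 against 1448 ± 84.1 CPM and 82.7 ± 20.3 against 392 ± 72.3 CPM. The same barcodes held 1544 to 2076 CPM of 7 endothelial markers and 1771 to 3575 CPM of 5 erythroid markers, against 0 to 36.3 CPM and 0 to 4.28 CPM in the classes of kept cells. Their part in the levels of the S100 and annexin genes was not tested.

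The 2 low-level S100 genes S100a3 and S100a4 were each at 61.4 CPM in the squamous gate of tumour 3, with 1 tumour and no test. S100a3 averaged 1.48 CPM in the Msln gate, 14.4 CPM in the ductal gate and 11.2 CPM in the acinar gate. S100a4 averaged 3.69, 16.4 and 2.58 CPM in the same gates. These values rest on few UMIs, with 15 for each gene in the squamous gate. In the Msln gate of tumours 1 and 3, S100a3 had 0 and 2 UMIs and S100a4 had 0 and 5. For tumour 1, 3 UMIs there would be 21.7 CPM.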
